A study of Mus musculus with 8 samples.

Results

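Egr1, Egr2, Egr3, Nr4a1, Nr4a2 and Nr4a3, with the corepressor gene Nab2 and the immediate-early gene Ier2, were followed in RNA-seq libraries of macrophages sorted from mouse hearts. The 8 genes were taken by symbol from a table of 24516 genes, and all 8 were in it. The libraries were 4 of endocardially derived cardiac tissue macrophages (EcTM: E591, E592, E604 and E606) and 4 of cardiac tissue macrophages without that origin (non-EcTM: N591, N592, N604 and N606). Every library came from C57BL/6 hearts at postnatal day 28 with the same alleles, 1 copy of Nfatc1Cre and 1 copy of a Rosa26 Tomato reporter, so non-EcTM cells carried Cre too and no group was free of it. In this design Cre under control of the endocardial gene Nfatc1 switches on the reporter, and cells in which Cre did not act count as non-EcTM whatever their origin. The sources used here give neither the sorting markers nor whether a number stands for 1 animal or a pool. The p-values thus refer to these libraries only, and the fits estimate the spread of a gene partly from other genes. Libraries of the same number were compared as pairs, EcTM over non-EcTM.

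The Egr genes encode zinc finger transcription factors and the Nr4a genes encode orphan nuclear receptors that act without a known hormone. Both families are immediate-early genes, whose transcripts appear within minutes of a stimulus without new protein synthesis, through kinase cascades that end on the DNA-binding factors SRF with its ELK partners, CREB and MEF2. NAB2 binds EGR proteins and represses their targets, and EGR proteins induce Nab2 in turn. In mice Nr4a1 is needed for the patrolling subset of blood monocytes and restrains inflammatory genes in macrophages. Enzymatic dissociation of a tissue is itself known to raise immediate-early transcripts.

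Totals ran from 2152425 to 2576407 counts in EcTM and from 2281657 to 2937464 in non-EcTM. The labelled cell type was borne out by 9 of 9 macrophage markers, among them Csf1r, Lyz2 and C1qa, whose summed level was 22400 to 23000 CPM in EcTM, against 20500 to 22800 CPM in non-EcTM. That sum was larger in EcTM in 4 of 4 pairs, and 8 of the 9 markers had a fitted change above 0, with a median log2 fold change of 0.05. CPM are counts scaled to library size with TMM factors. Monocyte markers, with Ccr2, summed to 21.3 to 54.4 CPM in EcTM, against 42.6 to 99.3 CPM in non-EcTM. Neutrophil and lymphocyte markers summed to at most 6.71 CPM in any EcTM library and 4.80 CPM in any non-EcTM library. The 10 endothelial markers summed to 42.5 to 273 CPM in EcTM, against 81.4 to 745 CPM in non-EcTM, with the highest value in N591, and Pecam1, Tek and Emcn were at 0 in every library. Mural markers summed to 67.9 to 90.0 CPM in EcTM, against 63.0 to 241 CPM in non-EcTM. Cardiomyocyte markers summed to 78.1 to 144 CPM in EcTM, against 93.5 to 175 CPM in non-EcTM. Fibroblast markers summed to 24.5 to 126 CPM in EcTM, against 21.1 to 188 CPM in non-EcTM. In each of these lists, as in the endothelial one, E591 and N591 were the highest of their groups. Genes with several transcripts had low counts here, as given below, so low marker sums and values of 0 are no measure of purity. With E591 and N591 left out, the paired edgeR log2 fold changes of the 2 members that differ most evenly, Egr1 and Nr4a1, were 0.19 ± 0.05 and 0.19 ± 0.07. Leaving out that pair did not even out the markers. The endothelial sum was lower in E592 and E604 (52.7 and 42.5 CPM) than in N592 and N604 (81.4 and 137 CPM). It was higher in E606 (190 CPM) than in N606 (108 CPM). The part of these marker levels in the values of the members was not tested.

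Egr1 and Nr4a1 were higher in the EcTM library of 4 of 4 pairs, by an average of 1.13-fold and 1.16-fold. In the paired edgeR fit neither passed the threshold of 0.05 on the adjusted p. The other members differed less or less evenly, and Ier2 was nearly level. Of the 8 members 6 passed the filter on low counts, and 0 of these 6 were called, where 0.013% of 7667 tested genes (1 gene) were called. A direction of higher in 4 of 4 pairs was seen in 2 of these 6 members and in 7.24% of tested genes. In 0 of the 6 members did the EcTM and non-EcTM libraries lie apart without overlap, which 2.7% of tested genes did.

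**Figure D1:**
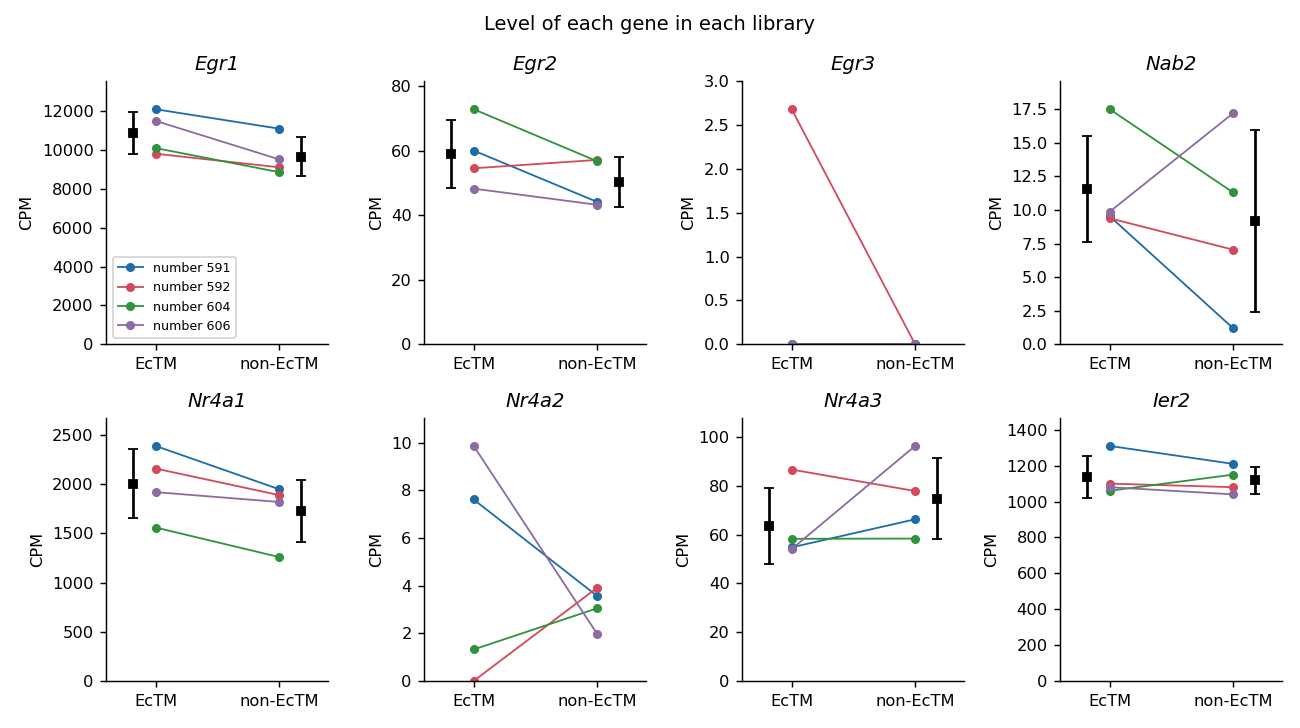
Level of the 8 genes (CPM, linear axis from 0) in each EcTM and non-EcTM library, where lines connect the libraries of a pair. Black squares are means ± SD (n = 4) of a group, left out for Egr3 and Nr4a2. The lines of Egr1 and Nr4a1 all fall toward non-EcTM, while those of the other genes cross or run flat.

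Egr1 (Entrez gene 13653), which encodes the family's most studied factor and is induced by growth factors and by macrophage differentiation signals, spans bases 34861207 to 34864956 of chromosome 18 in GRCm38. Its tally was 25405, 21954, 23106 and 29004 counts in E591, E592, E604 and E606, against 27942, 23270, 20313 and 28853 counts in N591, N592, N604 and N606. Those counts made up 0.944% to 1.18% of all gene counts in EcTM and 0.890% to 1.10% in non-EcTM.

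Scaled to library size, Egr1 stood at 12100, 9810, 10100 and 11500 CPM in EcTM, and at 11100, 9110, 8860 and 9520 CPM in non-EcTM, in the same order of libraries. E591 and N591 were the highest of their groups. E592 and E604 lay below N591, so the groups overlapped although each EcTM library exceeded its own partner. The log2 ratio within pairs was 0.13 for E591 over N591, 0.11 for E592 over N592, 0.19 for E604 over N604 and 0.27 for E606 over N606. The group means were 10900 ± 1080 CPM in EcTM, against 9650 ± 1000 CPM in non-EcTM (SD, n = 4 each). The paired edgeR fit gave a log2 fold change of 0.17 ± 0.04 (SE), with a 95% interval of 0.10 to 0.25 and an adjusted p of 0.144. By p-value this placed Egr1 at rank 2 of 7667 tested genes.

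The call on Egr1 depended on the test. Paired DESeq2 gave 0.18 ± 0.05 and an adjusted p of 0.0461, and paired limma-voom gave 0.18 ± 0.02 and 3.68e-11. The log2 ratios of Egr1 within pairs had an SD of 0.07. The SE of limma-voom draws on the spread of other genes, so its very small p-value does not rest on these pairs alone. Without the pairing edgeR gave 0.17 ± 0.08 and an adjusted p of 0.998, with 0% of genes called and 257 of 7667 under 0.05 before adjustment.

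Egr2 (Entrez gene 13654, chromosome 10 from 67534469 to 67542188 of GRCm38), which in mouse macrophages responds to alternative activation by interleukin 4, had 126, 122, 166 and 122 counts in EcTM, against 111, 146, 130 and 131 counts in non-EcTM. This corresponds to 60.0, 54.5, 72.8 and 48.2 CPM in EcTM, against 44.1, 57.1, 56.7 and 43.2 CPM in non-EcTM. The EcTM library was the higher one in 3 of 4 pairs, and between E592 and N592 the order turned. The paired edgeR log2 fold change was 0.22 ± 0.22 with a 95% interval of -0.24 to 0.68 and an adjusted p of 0.964. That interval holds both no difference and one larger than that of Egr1. Egr2 overlaps the long noncoding gene Gm32255 on the other strand over 1712 bases, and since the strand setting of the counting is not given, reads of the pair cannot be told apart.

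Egr3 (Entrez gene 13655, chromosome 14 from 70077317 to 70082613 of GRCm38), a family member described mainly in lymphocytes and neurons, had 6 counts in E592 and 0 in every other library. The 6 counts are 2.68 CPM. A count of 0 allows up to 3 counts, or 1.18 to 1.43 CPM in EcTM, against 0.990 to 1.31 CPM in non-EcTM (counting error only). Egr3 thus had no counts in 7 of 8 libraries, and it was not tested. It has 3 curated transcripts, and such genes had low counts here, so these bounds hold for its counts and not for its expression.

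Nab2 (Entrez gene 17937, chromosome 10 from 127660918 to 127666703 of GRCm38), the EGR corepressor, had 20, 21, 40 and 25 counts in EcTM, against 3, 18, 26 and 52 counts in non-EcTM. At 9.53, 9.38, 17.5 and 9.87 CPM the EcTM libraries were higher in 3 of 4 pairs, and the non-EcTM libraries stood at 1.19, 7.04, 11.3 and 17.2 CPM. N591 alone had the lowest and N606 almost the highest value, so the non-EcTM libraries spanned nearly the whole EcTM range. Paired edgeR gave a log2 fold change of 0.63 ± 0.64 and an adjusted p of 0.968. It was 0.07 ± 0.57 without E591 and N591 and 1.16 ± 0.79 without E606 and N606, and with all libraries 0.33 ± 0.63 without the pairing and 0.18 ± 0.55 in paired limma-voom. Nab2 shares 70 bases with the end of Stat6 on the other strand.

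Nr4a1 (Entrez gene 15370, chromosome 15 from 101253902 to 101274795 of GRCm38), which encodes NUR77, had 5018, 4831, 3547 and 4867 counts in EcTM, against 4901, 4832, 2879 and 5526 counts in non-EcTM. Its level was 2390, 2160, 1560 and 1920 CPM in EcTM, and 1950, 1890, 1260 and 1820 CPM in non-EcTM. E604 and N604 were the lowest of their groups, and E591 and N591 the highest. E604 lay below N591, N592 and N606, so the groups overlapped.

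The log2 ratio of Nr4a1 within pairs was 0.30 for E591 over N591, 0.19 for E592 over N592, 0.31 for E604 over N604 and 0.08 for E606 over N606. Group means were 2010 ± 356 CPM in EcTM, against 1730 ± 320 CPM in non-EcTM (SD, n = 4 each). The paired edgeR fit gave a log2 fold change of 0.22 ± 0.06, with a 95% interval of 0.10 to 0.34 and an adjusted p of 0.434, at rank 17 of 7667 by p-value. Paired DESeq2 gave 0.22 ± 0.05 with an adjusted p of 0.0143, paired limma-voom 0.21 ± 0.05 with 0.0179, and edgeR without the pairing 0.21 ± 0.14 with 0.998.

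In paired DESeq2 Egr1 and Nr4a1 were thus 2 called members, where 0.383% of the 4433 genes with an adjusted p were called (17 genes). Paired limma-voom called the same 2 members, with 0.248% of 7667 genes called. A paired edgeR fit with no filter on low counts called Egr1 at an adjusted p of 0.0233, with 0.0698% of 14319 genes called. These fits use the same 8 libraries and are not independent of each other. When any 1 pair was left out, paired DESeq2 with its default filter called neither gene. With its filter tuned to the 0.05 threshold, added after the data were seen, it called both without E592 and N592, Egr1 without E604 and N604, and neither otherwise. Over all alternatives the fitted changes stayed between 0.14 and 0.20 for Egr1 and between 0.19 and 0.26 for Nr4a1.

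**Figure D2:**
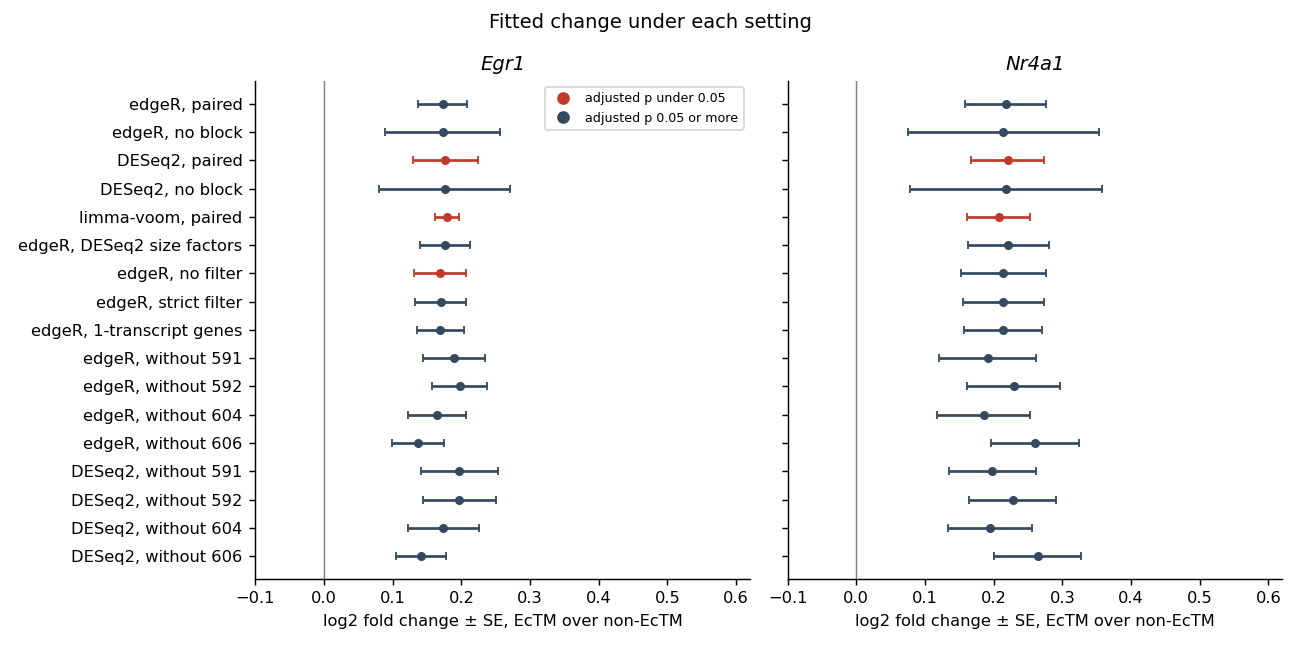
Log2 fold change of Egr1 and Nr4a1, EcTM over non-EcTM, under each fit listed at the left, with bars for the SE and red points for an adjusted p under 0.05. All points lie above 0, and the fits without the replicate block have the widest bars. DESeq2 is drawn with its default filter, and fits with the tuned filter are not plotted.

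Nr4a2 (Entrez gene 18227, chromosome 2 from 57106830 to 57124003 of GRCm38), which encodes NURR1, a receptor best known in dopamine neurons and also induced in stimulated macrophages, stayed under 10 CPM. It had 16, 0, 3 and 25 counts in EcTM, against 9, 10, 7 and 6 counts in non-EcTM. E591 and E606 were above all non-EcTM libraries and E592 and E604 below all of them, so its 4 pairs split evenly by direction. It did not pass the filter on low counts, and the edgeR fit with that filter did not test it. In paired DESeq2 its log2 fold change was -0.19 ± 1.02, with no adjusted p, and its direction was not stable. DESeq2 gave 0.59 with no block, 0.85 without E592 and N592 and 0.28 without E604 and N604, against -0.95 without E591 and N591 and -1.40 without E606 and N606. Its locus shares 670 bases with the predicted gene LOC105244150.

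Nr4a3 (Entrez gene 18124, chromosome 4 from 48045078 to 48086447 of GRCm38), which encodes NOR1, had 115, 194, 133 and 137 counts in EcTM, against 167, 199, 134 and 292 counts in non-EcTM. The levels were 54.8, 86.7, 58.3 and 54.1 CPM in EcTM, against 66.3, 77.9, 58.4 and 96.4 CPM in non-EcTM. E606 lay furthest below its partner N606, E604 and N604 were level, and E592 lay above N592. The paired edgeR log2 fold change was -0.24 ± 0.21, with a 95% interval of -0.67 to 0.19 and an adjusted p of 0.964. It was -0.04 ± 0.24 without E606 and N606 and -0.37 ± 0.25 without E592 and N592.

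Ier2 (Entrez gene 15936, chromosome 8 from 84661331 to 84662852 of GRCm38), which encodes a small nuclear protein and is switched on with Fos and Jun, had 2749, 2463, 2424 and 2742 counts in EcTM, against 3045, 2757, 2644 and 3148 counts in non-EcTM. Its level was 1310, 1100, 1060 and 1080 CPM in EcTM, against 1210, 1080, 1150 and 1040 CPM in non-EcTM. EcTM was higher in 3 of 4 pairs by little, and the groups overlapped throughout. The paired edgeR log2 fold change was 0.02 ± 0.07, with a 95% interval of -0.12 to 0.16 and an adjusted p of 0.994. That interval reaches up to the lower part of the interval of Egr1.

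**Figure D3:**
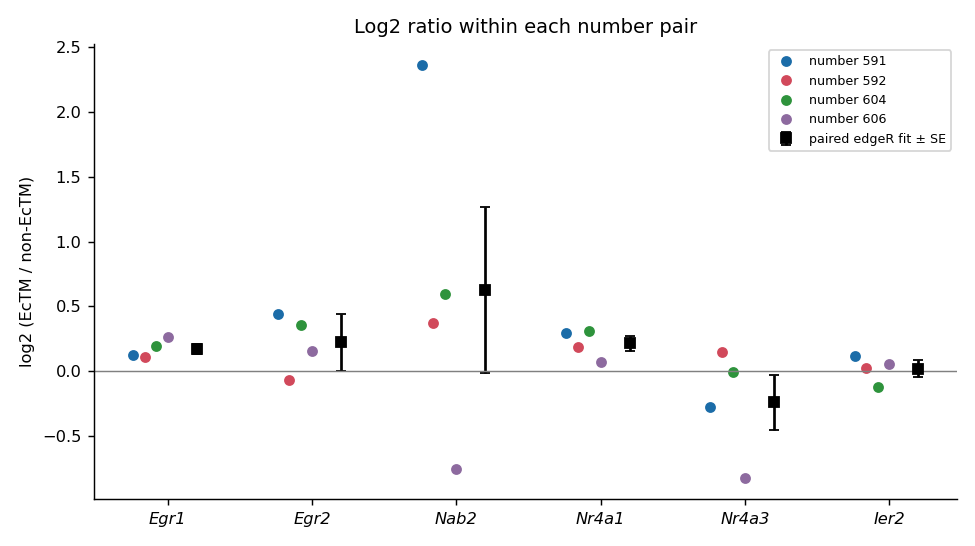
Log2 ratio of EcTM over non-EcTM within each number pair (coloured points, log2 CPM with a prior count of 2) and the paired edgeR estimate ± SE (black squares) for the 6 tested members. All points of Egr1 and Nr4a1 lie above 0, and Nab2 runs from -0.75 to 2.36.

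Ratios between members inside a library do not depend on the scaling of libraries. The log2 ratio of Egr1 to Ier2 counts was 3.156 to 3.403 in EcTM and 2.942 to 3.198 in non-EcTM, and EcTM exceeded its partner in 4 of 4 pairs, by 0.01 to 0.31. For Nr4a1 to Ier2 it was 0.55 to 0.97 in EcTM and 0.12 to 0.81 in non-EcTM, higher in 4 of 4 pairs by 0.02 to 0.43. The ratio of Nr4a1 to Egr1 was higher in EcTM in 3 of 4 pairs, and the pair of E606 and N606 went the other way. These ratios were chosen after the values were seen and are given without a test.

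**Figure D4:**
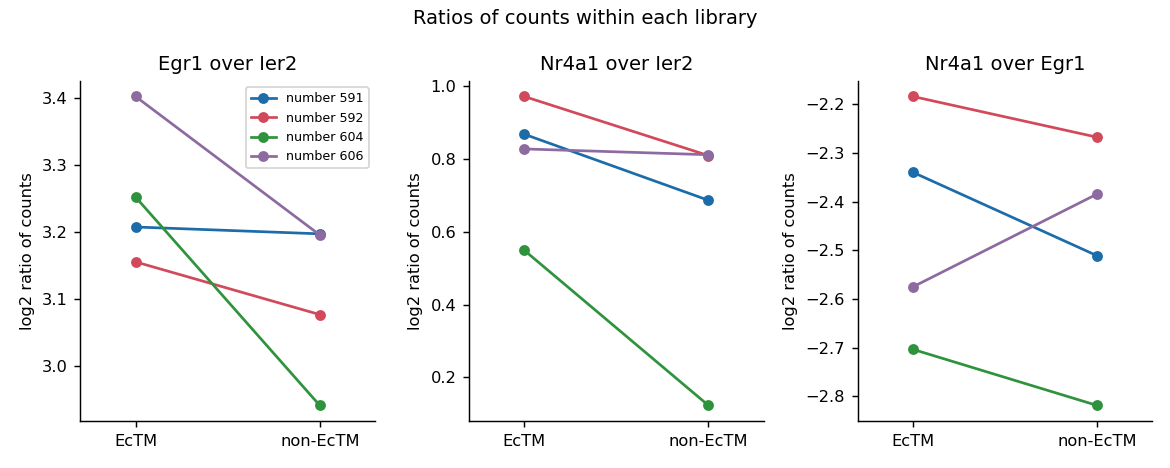
Log2 ratio of the counts of the gene pairs named above each panel, in each EcTM and non-EcTM library, where lines connect the libraries of a pair. For Egr1 over Ier2 and Nr4a1 over Ier2 each line falls toward non-EcTM, and the 4 pairs start from different levels.

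Of the spread of log2 CPM over the 8 libraries, the number accounted for 80.2% and the group for 16.7% in Nr4a1, for 63.3% and 32.4% in Egr1, and for 82.1% and 1.04% in Ier2. Over all tested genes the medians were 48.1% for the number and 7.56% for the group. The number has 3 degrees of freedom and the group has 1, so with no effect of either the shares would average 42.9% and 14.3%. The values over all tested genes are medians of skewed shares, so they cannot be read against these averages. Pearson's r of log2 CPM over the 8 libraries, which share numbers in pairs, was 0.65 between Egr1 and Nr4a1, -0.09 between Egr1 and Egr2 and 0.18 between Nr4a1 and Nr4a3. It was 0.58 between Egr1 and Ier2 and -0.53 between Egr1 and Nr4a3. These values of r are given as a description.

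Levels can be set beside each other only per length and only where counts were not lost. Counts of genes with several transcripts were low in this table. In families of housekeeping genes the median total count was 513 for 249 genes with 1 curated RefSeq transcript, against 49 where there were 2 (66 genes) and 22 where there were 3 or more (55 genes). Egr1, Nr4a1 and Ier2 have 1 curated transcript, Nr4a2, Nr4a3 and Nab2 have 2, Egr3 has 3 and Egr2 has 6, so the low counts of these 5 genes are no measure of their level. Per kilobase of transcript, Egr1 stood at 3580 ± 362 CPM in EcTM, against 3180 ± 331 CPM in non-EcTM, Nr4a1 at 810 ± 143 and 698 ± 128, and Ier2 at 747 ± 76.3 and 736 ± 49.5, in the same order of groups (SD, n = 4 each). Egr1 was the highest of the 3 in every library, and Nr4a1 and Ier2 did not differ beyond their spread.

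The windows around transcript starts are shown for 3 members because they hold letters that match known elements through which immediate-early genes are switched on. RefSeq promoters (GRCm38.p6, 250 bases before to 50 after the start) were found for 5 of the 8 members, Egr2, Nab2, Nr4a1, Nr4a2 and Nr4a3. Capitals mark the core TGACG of the CREB site on either strand and, in Egr2, also the CArG box bound by SRF. The windows are chr15:101266596-101266895 on the plus strand for Nr4a1, chr4:48045055-48045354 on the plus strand for Nr4a3 and chr10:67537619-67537918 on the plus strand for Egr2, which has 5 windows, of which the first with the most cores is shown.
Nr4a1: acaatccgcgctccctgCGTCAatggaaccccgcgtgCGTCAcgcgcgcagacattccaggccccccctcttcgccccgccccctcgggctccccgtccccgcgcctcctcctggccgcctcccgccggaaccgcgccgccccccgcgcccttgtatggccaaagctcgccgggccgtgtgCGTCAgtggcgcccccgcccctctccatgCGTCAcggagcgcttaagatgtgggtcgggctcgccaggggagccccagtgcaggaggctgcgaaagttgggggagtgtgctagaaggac
Nr4a3: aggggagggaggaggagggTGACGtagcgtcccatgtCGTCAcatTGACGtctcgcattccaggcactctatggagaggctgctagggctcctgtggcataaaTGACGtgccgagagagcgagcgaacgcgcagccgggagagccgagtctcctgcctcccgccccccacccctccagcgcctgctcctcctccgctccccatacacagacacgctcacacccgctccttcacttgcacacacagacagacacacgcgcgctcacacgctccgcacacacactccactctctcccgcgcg
Egr2: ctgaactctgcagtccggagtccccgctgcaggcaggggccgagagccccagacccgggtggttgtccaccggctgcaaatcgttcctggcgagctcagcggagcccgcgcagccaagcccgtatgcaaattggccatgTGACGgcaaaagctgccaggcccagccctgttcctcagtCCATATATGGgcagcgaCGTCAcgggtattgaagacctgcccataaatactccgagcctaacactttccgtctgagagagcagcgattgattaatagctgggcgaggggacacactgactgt

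The core TGACG occurred 4 times each in the windows of Nr4a1, Nr4a2 and Nr4a3, 2 times in the Egr2 window shown and 0 times in that of Nab2. Of 32851 promoter windows of the same length 20.8% held it at least once and 0.231% held it at least 4 times. No core overlapped another or the CArG box. In Nr4a1 the cores began at positions -233, -213, -69 and -40 relative to the start. The full site TGACGTCA was in none of the 5 members' windows and in 1.79% of all. The CArG box lay at -72 to -63 in the Egr2 window shown and is held by 1.63% of all windows. The EGR site GCGGGGGCG (2.91% of all windows) was found once, in Nr4a1, and GCGTGGGCG (0.612%) and the NR4A site AAAGGTCA (1.51%) in none of the members' windows. Windows were searched on both strands. A match describes letters and is no evidence of binding in these cells.

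Other genes of the pathway came from lists made for this comparison. Of the 38 other immediate-early genes 31 were tested, and 0 passed the paired edgeR threshold in either direction. Paired DESeq2 called 0 genes of this and of each list below. The median log2 fold change of the 31 was 0.08, with 22 above 0 and 9 below, beside -0.01 over all tested genes. Of the 31, 7 (22.6%) were higher in EcTM in 4 of 4 pairs. That share was 7.24% over all tested genes and 22.2% among the macrophage markers. The immediate-early list summed to 51100 to 62100 CPM in EcTM, against 48500 to 58700 CPM in non-EcTM. At an unadjusted p under 0.05, 3 of the list were higher and 0 lower, where 2.77% of tested genes were higher at that level.

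The 3 were Zfp36, Btg2 and Klf6. Zfp36, which encodes the mRNA decay factor tristetraprolin, averaged 7030 ± 478 CPM in EcTM, against 6510 ± 471 CPM in non-EcTM, with a log2 fold change of 0.11 ± 0.04 and an edgeR adjusted p of 0.751. Paired limma-voom called it at 0.00186. The antiproliferative gene Btg2 had 0.14 ± 0.05 and the zinc finger gene Klf6 had 0.12 ± 0.06, with edgeR adjusted p-values of 0.800 and 0.907. Klf6 had 0.08 without E592 and N592, and DESeq2 with the tuned filter called it without E604 and N604 (adjusted p of 0.0313). Of the AP-1 genes on the list, Fos, Jun and Junb had 0.04, 0.03 and 0.09. Fosb, Fosl2 and Atf3 had 0.05, 0.12 and 0.07. These genes were named after their values were seen.

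Genes that dampen the kinase signal upstream had the highest median of the 6 pathway lists, 0.21 over 11 tested of 13, with 0 passing and 9 above 0. The list held 4 genes higher and 0 lower at an unadjusted p under 0.05, where 2.77% of tested genes were higher at that level. It was made with earlier results of these data known. Dusp2, a nuclear phosphatase of ERK, averaged 155 ± 41.2 CPM in EcTM, against 108 ± 21.0 CPM in non-EcTM, with a log2 fold change of 0.52 ± 0.17 and an edgeR adjusted p of 0.697. Dusp6, a cytoplasmic ERK phosphatase, averaged 335 ± 22.5 CPM in EcTM, against 274 ± 26.0 CPM in non-EcTM, with 0.30 ± 0.10 and 0.751. Its groups did not overlap, as in 2.7% of tested genes. Dusp8, a phosphatase of stress kinases, had 0.57 ± 0.25 and 0.897. Without E591 and N591 Dusp8 had 0.26, and without E606 and N606 Dusp2 had 0.32. DESeq2 with the tuned filter called Dusp2 without E592 and N592 (adjusted p of 0.041).

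Of 30 genes of factors upstream of the members 19 were tested, 0 passed, 10 lay above 0 and 9 below, and the median was 0.09. At an unadjusted p under 0.05, 0 differed. The related coactivators Crebbp and Ep300, which join CREB at its targets, both had a log2 fold change of 0.13, with SEs of 0.07 and 0.08, and Atf1, a CREB relative, had 0.37 ± 0.25. Their edgeR adjusted p-values were 0.930 to 0.958. Ep300 had 0.07 without E592 and N592 and 0.20 without E604 and N604, and Atf1 had 0.60 without E592 and N592 and 0.22 without E606 and N606.

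Of 17 genes listed as EGR partners or described EGR targets, 11 were tested and 0 passed, with 8 above 0 and a median of 0.11. Of the 11, 1 was higher at an unadjusted p under 0.05, where 2.77% of tested genes were. Tgfb1, the gene of the growth factor TGF-beta 1, had a log2 fold change of 0.20 ± 0.09 and an edgeR adjusted p of 0.907, and 0.13 without E606 and N606. The platelet-derived growth factor genes Pdgfb and Pdgfa had 0.31 ± 0.15 and 0.72 ± 0.42, with 0.914 and 0.931. Pdgfb stood at 128 ± 4.10 CPM in EcTM, against 104 ± 2.51 CPM in non-EcTM, with no overlap of the groups, as in 2.7% of tested genes.

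Of 13 dimer partners and coregulators of NR4A receptors 10 were tested and 0 passed, with 3 above 0, 7 below, a median of -0.04 and 0 at an unadjusted p under 0.05. Rxra, the gene of the retinoid X receptor alpha, averaged 18.4 ± 16.8 CPM in EcTM, against 6.79 ± 3.67 CPM in non-EcTM, with 1.03 ± 0.60 and an edgeR adjusted p of 0.931. It had 0.55 without E591 and N591 and 1.55 without E606 and N606. The coactivator gene Ncoa1 had -0.18 ± 0.11 (-0.12 without E604 and N604), and in 0 of 4 pairs did its EcTM library exceed the partner.

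Heat shock genes, which also respond to stress of cells during isolation, summed to 6210 to 8120 CPM in EcTM, against 5900 to 8280 CPM in non-EcTM. Of 13 listed 11 were tested, 0 passed, 4 lay above 0 and 7 below, and the median was -0.02. At an unadjusted p under 0.05, 1 was higher, where 2.77% of tested genes were. Hsp90aa1 had 0.23 ± 0.10, Hsp90ab1 0.08 ± 0.05 and Dnajb1 -0.24 ± 0.13, with edgeR adjusted p-values of 0.902, 0.941 and 0.931. Without E604 and N604 Hsp90ab1 had 0.03, and Dnajb1 had -0.15 without E591 and N591 and -0.39 without E606 and N606. In bulk RNA fewer cells with a transcript and less of it per cell cannot be told apart, for these lists and for the members alike.

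**Figure D5:**
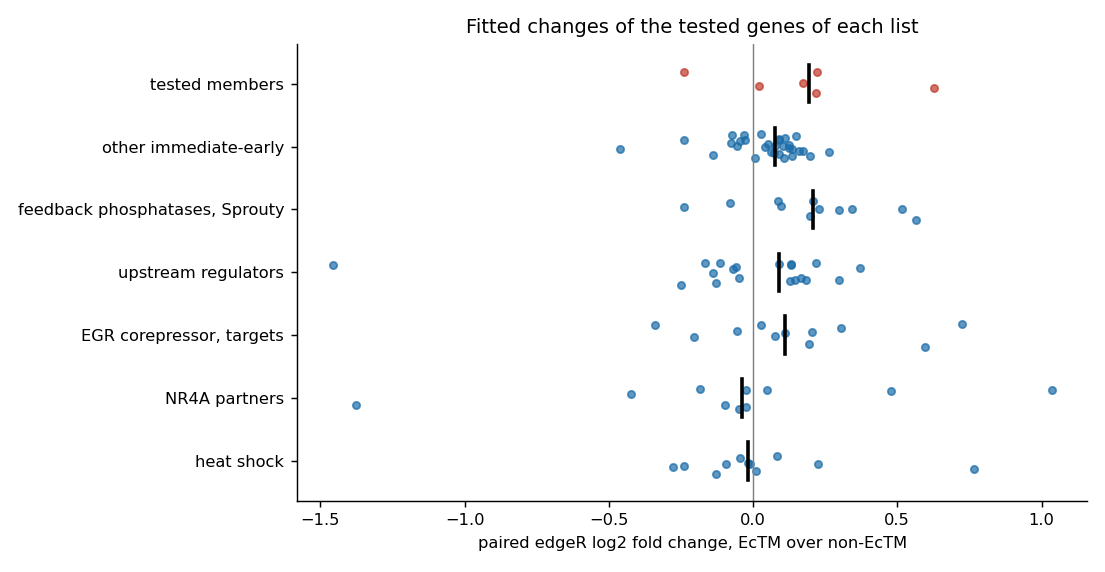
Paired edgeR log2 fold changes, EcTM over non-EcTM, of the 6 tested members (red) and of the tested genes of 6 lists (blue), with black bars at the medians. Medians run from -0.04 in the NR4A partners to 0.21 in the feedback phosphatases, and no gene in the plot passed the threshold.

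The genes whose profile was most like that of Egr1 over the 8 libraries were Focad, Zfp36, Zfp687, Rab5b and Col27a1, with Pearson's r of 0.92 to 0.94 among 3910 genes of at least 5 on the log2 CPM scale. For Nr4a1 they were Rexo2, Pmaip1, Cyr61, Ssfa2 and Tpr, with 0.95 to 0.97. Zfp36 and Cyr61 are on the immediate-early list. These are the highest of many values over 8 libraries that share numbers, and are given as a description.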

How the data were processed

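Total RNA of sorted cells was made into stranded libraries with the SMARTer Pico kit, per the labels' protocols. Per the submitters' processing notes, bcl2fastq 2.17, TopHat, mm10, DESeq2 and R 3.2 were used. How reads were counted, with which annotation and on which strand, is not given in the sources used here. Raw counts per Entrez gene were deposited by the authors with columns headed CPM that hold log2 values, which a regularised log transformation in DESeq2 with number and group in its design matched to within 0.00881 (0.139 with group alone) over 14319 genes. All results use the counts.

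Samples were grouped by title, and members and lists were chosen with earlier results of these data known. After removal of group means, the 4 same-number pairs had correlations across genes of 0.12 to 0.19 and other pairs -0.13 to 0.05, so the number was a replicate block in the model. filterByExpr kept 7667 genes with 99.3% of counts. Groups were compared over all of them by a quasi-likelihood test in edgeR 4.0.16 (R 4.3.3, TMM, two-sided, Benjamini-Hochberg, threshold 0.05). Log2 fold changes had a median SE of 0.30, which was 0.09 in the 715 genes at a log2 CPM of 8 or more. DESeq2 1.42.0, limma-voom (limma 3.58.1), other scalings and filters, genes with 1 curated transcript, and leaving out each number (both libraries) were alternatives. A DESeq2 filter tuned to the 0.05 threshold was added after the data were seen. From each list the 3 tested genes with the smallest p are named, with any gene called by paired edgeR or DESeq2, except 1 gene that is not reported here. Genes most like the highest member of each family were ranked by Pearson's r. Of the 24516 genes 24447 matched RefSeq (GRCm38.p6, the assembly mm10 names) by Entrez number, and 10197 were at 0 in all libraries. Figures used matplotlib 3.10.9 in Python 3.11.15.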

Additional observations from a re-analysis of the deposited data

Results flagged for a closer look

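In 51 groups of 4 libraries, examined for the 8 members and 18 named genes of the lists, 1 library stood far from the other 3 in 8 groups. Chance gives about 1 in 20 for normally distributed values, which low counts are not, so the 8 cannot be read strictly against it. All 8 groups were EcTM. Among the members, Egr3 had 2.68 CPM in E592 and 0 in the other EcTM libraries, a pattern that is flagged at any count in E592. Nr4a3 had 86.7 CPM in E592 and 54.1 to 58.3 CPM in the others. Nab2 had 17.5 CPM in E604, against 9.38 to 9.87 CPM in the others, and Ier2 had 1310 CPM in E591, against 1060 to 1100 CPM. Of the other genes, Dusp2 had 216 CPM in E606 (131 to 142 CPM in the others), Dusp6 302 CPM in E591 (343 to 350 CPM), Ep300 863 CPM in E604 (936 to 950 CPM) and Pdgfb 134 CPM in E592 (126 to 127 CPM). No 1 library stood apart in most of them.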

How the results depend on the processing

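The paired edgeR fit, with the replicate block, called 1 gene and 0 members. The number of genes called was 0 with no replicate block in edgeR and in DESeq2 and among genes with 1 curated transcript, 17 in DESeq2 with the replicate block, 19 in paired limma-voom, 10 with no filter on low counts and 24 in DESeq2 with its filter tuned to 0.05. The 1 gene called by the paired edgeR fit has 2 curated transcripts, so the fit of genes with 1 could not call it. The number of members called was 2 in each of paired DESeq2, paired limma-voom and DESeq2 with the tuned filter, 1 with no filter, and 0 with no replicate block. Leaving out 1 pair gave 1 to 2 genes and 0 members in edgeR, 2 to 19 genes and 0 members in DESeq2 (4 without E606 and N606), and 0 to 25 genes and 0 to 2 members with the tuned filter (15 genes without E592 and N592, 4 genes when E606 and N606 were left out). With that filter Egr1 was called without E592 and N592 (adjusted p 0.041) and without E604 and N604 (0.045), and had 0.37 without E591 and N591 and 0.183 without E606 and N606. Nr4a1 was called without E592 and N592 (0.0443) and had 0.0591 to 0.617 otherwise. Fits of 3 pairs have fewer residual degrees of freedom. Over 21 alternatives the log2 fold change ran from 0.14 to 0.20 for Egr1 and from 0.19 to 0.26 for Nr4a1, and the adjusted p from 3.68e-11 to 0.998 and from 0.0111 to 0.998. Of the 6 tested members only Ier2 turned direction, to -0.0091 in edgeR and -0.0013 in DESeq2 without E591 and N591; the highest value among edgeR fits of 3 pairs was 0.0658. Nr4a2, which the filter left out of edgeR, ran from -1.40 to 0.85 in DESeq2. Among the 18 list genes none turned direction, but several moved by over 1.5 times when 1 pair was left out, as given beside their values. Nab2, Nr4a2 and Egr3 rest on 205, 76 and 6 counts in all, which limits what they can show.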
